A study of Mus musculus with 1087 samples.

Results

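The messenger RNAs of 8 enzymes and partners that write or erase DNA methylation were followed through single cells of the mouse aorta-gonad-mesonephros (AGM) region, where the first hematopoietic stem cells form. The 8 genes were taken by symbol from a table of 46078 genes, and all 8 were found there. They are the maintenance methyltransferase Dnmt1 and its cofactor Uhrf1, the de novo methyltransferases Dnmt3a and Dnmt3b, the Tet dioxygenases Tet1, Tet2 and Tet3, and the glycosylase Tdg.

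DNA methylation in mammals sits mostly on cytosines of CpG pairs. Dnmt1 copies it to the new strand after replication, and Uhrf1 binds the half-methylated DNA left by the replication fork and brings Dnmt1 to it. Dnmt3a and Dnmt3b place methyl groups on unmethylated sites, Dnmt3b mostly in the embryo. Tet enzymes oxidise the methyl group, and Tdg cuts out the most oxidised forms so that base excision repair can put back a plain cytosine. In blood, Dnmt3a and Tet2 are known as genes whose loss changes the self-renewal of hematopoietic stem cells.

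The embryos were Gata2V/+, with 1 allele of Gata2 joined to the Venus fluorescent protein, from C57BL/6HsdJOla wild-type females mated with Gata2V/V males. Gata2 is a transcription factor needed for hematopoietic stem cells. AGM tissue, with the trunk part of the vitelline and umbilical arteries, was digested with collagenase, stained for CD31, cKit and CD27, and sorted as single live cells. The sample names call all cells KitHi and give the day and the gate, so the groups are E10 G2VInt (87 cells), E11 G2VInt (130 cells), E11.5 G2VInt (25.7% of all cells), E11.5 G2VLo (43.4%) and E11.5 CD27+ (10.9%). Int and Lo are read here as intermediate and low Venus, while no Venus level is stated for CD27+ cells.

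Each of the 1087 samples is 1 cell. Which embryo, litter or sort a cell came from is not labelled, so a group counts as 1 sample, cells are not replicates, and no difference between groups was tested. Levels are given as CPM, a read count scaled to the same total, of the reads summed over a set of cells. Ranges in brackets after a level or a share are 95% intervals (exact Poisson for CPM, Clopper-Pearson for shares), which cover counting error only and are too narrow where PCR copied a molecule. Median depth was between 1892779 and 2212898 reads per cell in the 3 G2VInt groups, 539090 in G2VLo and 621544 in CD27+ cells. The median share of mitochondrial reads was between 2.04% and 2.93% in G2VInt, 6.41% in G2VLo and 8.29% in CD27+ cells. Library numbers form separate runs by group, with the CD27+ run lying between 2 runs of G2VLo, so neither a gate nor a day can be told apart from its run of libraries. To compare how many cells held a read of a gene, each cell was thinned at random to 100000 reads.

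The labels also give the authors' class of each cell outside the CD27+ group. Fixed markers matched the names EC and HC: in G2VLo, 8 endothelial markers summed to 6054 CPM in EC and 1459 in HC1, and 8 hematopoietic markers to 79.8 CPM in EC, 2566.5 in HC1 and 2339 in HC2. HC2 of E11.5 G2VInt also held erythroid markers (989 CPM, against 22.5 in HC1), myeloid markers (1324 CPM, against 676) and some mast cell markers (487 CPM, against 2.33). Of the 8 mast cell markers 3 reached 10 CPM there, and Ms4a2, Fcer1a, Tpsb2 and Mcpt8 had no read. Of the 8 myeloid markers 3 reached 10 CPM, and Ctsg and S100a8 had no read. U1 cells of G2VLo carried 13215 CPM of 8 macrophage markers. These classes were made from the same transcriptomes, so levels by class are descriptions and not tests.

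Each of the 8 genes was read in most of the thinned cells. Over all cells Dnmt3a was read in 97.98% of the thinned cells, Dnmt1 in 97.7%, Uhrf1 in 95.1%, Tet3 in 91.5% and Dnmt3b in 85.3%. Tet2 was read in 64.03%, Tdg in 60.7% and Tet1 in 55.3%. Near-identical copies took few reads next to the members. Dnmt3a-ps1 had 0.525% of the reads of Dnmt3a, Dnmt3c 0.228% of those of Dnmt3b and Tdg-ps 1.49% of those of Tdg. Glt8d2, which overlaps Tdg on the other strand, had 9.34% of the reads of Tdg, and since the strand setting is not given in the sources used here, Tdg values may hold some of its reads. Dnmt3l, the catalytically inactive partner of the de novo enzymes, had 7 reads in all 1087 cells.

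**Figure D1:**
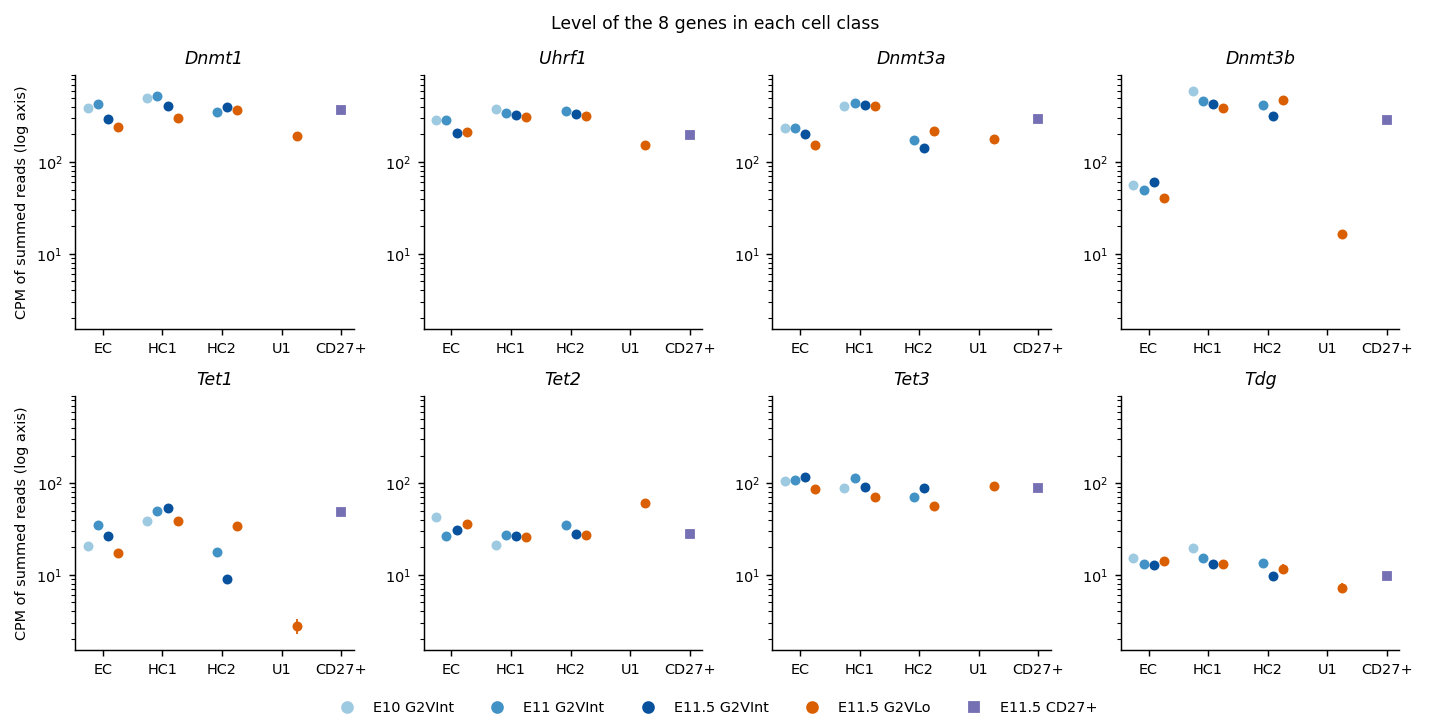
Level of each of the 8 genes (CPM of summed reads, log axis) in the authors' classes EC, HC1, HC2 and U1, with 1 point per group of cells and CD27+ cells, which have no class, as squares. Vertical lines are 95% counting intervals, mostly smaller than the points; the EC sets of E10 (14 cells) and E11 (15 cells) are small, and sets under 10 cells and class U2 are left out. Among the sets plotted, Dnmt3b ran from 16.2 CPM in U1 to 591 CPM in HC1 of E10, and Tet1 from 2.76 CPM in U1 to 53.2 CPM in HC1 of E11.5 G2VInt, while Dnmt1, Uhrf1, Tet3 and Tdg spanned less.

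Dnmt1 (ENSMUSG00000004099, chr9:20907209-20959888, minus strand, GRCm38) was read in nearly every cell. Its level over all G2VInt cells was 484 CPM on E10 (480.5 to 487), 468.3 CPM on E11 (465.9 to 470.7) and 340.4 CPM on E11.5 (338.8 to 341.9). It was 366.8 in CD27+ (362.5 to 371.1) and 260.3 in G2VLo (258.4 to 262.3). By class at E11.5 in G2VInt it stood at 292.9 CPM in EC, 406.3 in HC1 and 394.3 in HC2. In G2VLo the same classes held 241.7, 303.3 and 366.2 CPM, and U1 held 190.8 CPM. Dnmt1 was therefore lowest in the macrophage-marked class.

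Uhrf1 (ENSMUSG00000001228, chr17:56303321-56323486, plus strand) followed a similar order of classes. In G2VInt at E11.5 it stood at 209.4 CPM in EC, 323.3 in HC1 and 332.5 in HC2, and in G2VLo at 211.8, 306.4 and 318.7 CPM. U1 of G2VLo held 153.6 CPM. Both maintenance genes were read together in 98.04% of HC1 cells and 94.3% of EC cells of E11.5 G2VInt and in 79.2% of U1 cells of G2VLo. Over groups the order differed from that of Dnmt1, with 371.8 CPM on E10 (369.03 to 374.7), 346.9 CPM on E11 (344.8 to 348.9), 260.8 CPM on E11.5 (259.4 to 262.1), 235.7 in G2VLo (233.9 to 237.6) and the lowest level, 197.8 CPM (194.7 to 200.97), in CD27+ cells.

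Across the cells of each group, the maintenance pair went with DNA replication genes and the other 6 genes did not. The measure was the Spearman correlation of log2(CPM + 1) of a gene with the mean log2(CPM + 1) of 26 S phase genes such as Mcm2 and Rrm2. For Uhrf1 it was 0.79 on E10, 0.79 on E11 and 0.82 on E11.5 in G2VInt, 0.74 in G2VLo and 0.55 in CD27+ cells, over the cell numbers given above. For Dnmt1 it was 0.53, 0.56, 0.62, 0.62 and 0.40 in the same order. The other 6 genes lay between -0.30 and 0.16 in the 5 groups. Within HC1 alone Uhrf1 reached 0.86 in G2VInt (36.6% of that group) and 0.74 in G2VLo (34.5% of that group), and Dnmt1 0.61 and 0.55, so the relation was not one between classes only. These are descriptions over cells that share a library preparation. The correlation of Uhrf1 with depth lay between 0.01 and 0.34 in the 5 groups, that of Dnmt1 between -0.02 and 0.31.

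With 20 G2 and M phase genes such as Plk1 and Nek2, Uhrf1 lay between -0.22 and 0.16 and Dnmt1 between 0.01 and 0.39. Dnmt3b lay at 0.41 on E10, 0.30 on E11, 0.25 in E11.5 G2VInt, -0.10 in G2VLo and 0.24 in CD27+ cells. Tet1 reached 0.38 on E10 and lay between 0.04 and 0.16 in the other groups. Dnmt3a, Tet2, Tet3 and Tdg lay between -0.29 and 0.26. Dnmt1 and Uhrf1 correlated with each other at 0.57, 0.47, 0.54, 0.47 and 0.32 in the order E10, E11, E11.5 G2VInt, G2VLo and CD27+. Of 9835 named genes, those most like Dnmt1 by the mean correlation over the 5 groups were Tk1 (0.52), Rrm2 (0.49) and Hist1h2ab (0.49), and those most like Uhrf1 were Pcna-ps2 (0.62), Mcm5 (0.62) and Rrm2 (0.61). Tk1 and Rrm2 make DNA precursors and Mcm5 is part of the replicative helicase. Pcna-ps2 is a near copy of Pcna, and how reads were split between them is not known.

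**Figure D2:**
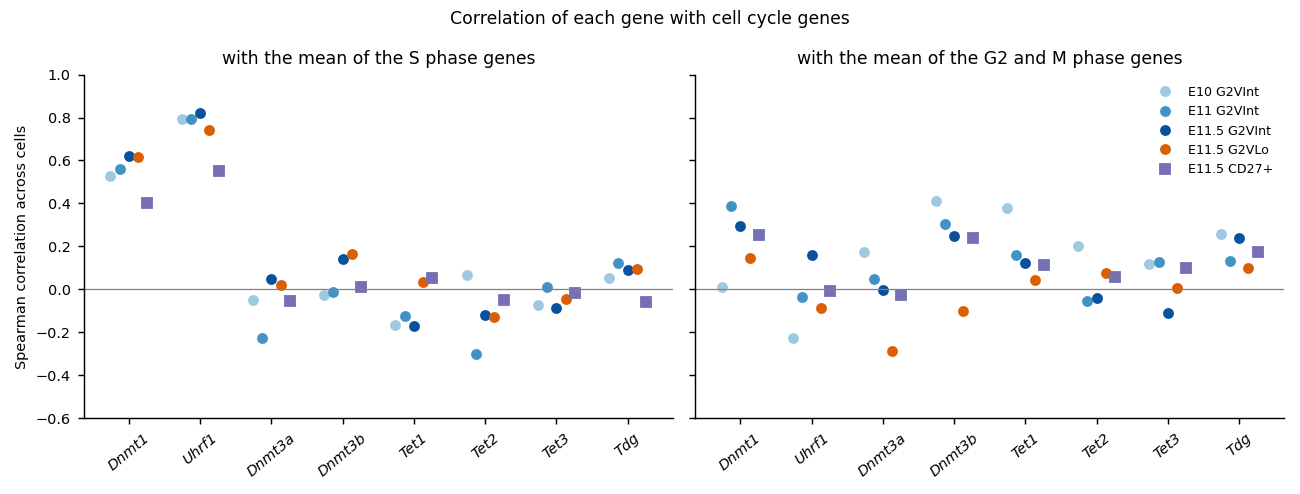
Spearman correlation across cells of each gene with the mean of 26 S phase genes (left) and of 20 G2 and M phase genes (right), 1 point per group. Dnmt1 lies between 0.40 and 0.62 and Uhrf1 between 0.55 and 0.82 on the left, apart from the other 6 genes, which lie between -0.30 and 0.16.

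Because Dnmt1 and Uhrf1 went with S phase genes, the windows of 250 bases before their RefSeq start sites (GRCm38.p6) were searched for short motifs, among them the E2F motif of replication genes, in 4 forms (TTTCCCGC, TTTCGCGC, TTTGCCGC and TTTGGCGC), and the CCAAT box, both on either strand. The 8 genes have 13 such windows. An E2F form was present in 1 of 3 windows of Dnmt1, in 1 of 2 of Uhrf1 and in none of the 8 windows of the other 6 genes. Among 32851 windows of all genes 1.86% held one. By gene the share was 2.16%, and among the 19 S phase genes with a window 6 had one (31.6%). Capitals below mark E2F and CCAAT matches. The window of the first Dnmt1 start (chr9:20959889-20960138, minus strand) held 4 CCAAT boxes and no E2F form. The E2F form of Dnmt1 lies before another start, at chr9:20952835-20952842, in an untranslated exon of transcripts that begin further upstream, and the site alone is given (chr9:20952825-20952852, minus strand). The E2F form of Uhrf1 lies at chr17:56304128-56304135, before its second start and inside the first intron of transcripts from the first start, and the whole window is given (chr17:56304063-56304312, plus strand). The window of Dnmt3b (chr2:153649199-153649448, plus strand) is given as a contrast, with neither an E2F form nor a CCAAT box. It does hold a match of the cell cycle element described below, which is not marked.
Dnmt1, first start: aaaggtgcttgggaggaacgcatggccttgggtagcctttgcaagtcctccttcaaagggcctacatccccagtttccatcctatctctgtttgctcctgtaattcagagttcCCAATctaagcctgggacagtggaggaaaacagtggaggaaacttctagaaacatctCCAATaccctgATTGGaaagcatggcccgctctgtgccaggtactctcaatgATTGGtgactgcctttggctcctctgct
Dnmt1, E2F site: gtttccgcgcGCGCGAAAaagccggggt
Uhrf1, second start: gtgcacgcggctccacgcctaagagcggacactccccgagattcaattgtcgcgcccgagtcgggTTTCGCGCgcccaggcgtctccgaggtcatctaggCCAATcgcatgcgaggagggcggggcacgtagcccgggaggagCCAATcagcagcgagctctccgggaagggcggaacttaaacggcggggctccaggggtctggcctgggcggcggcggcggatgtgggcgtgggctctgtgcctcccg
Dnmt3b: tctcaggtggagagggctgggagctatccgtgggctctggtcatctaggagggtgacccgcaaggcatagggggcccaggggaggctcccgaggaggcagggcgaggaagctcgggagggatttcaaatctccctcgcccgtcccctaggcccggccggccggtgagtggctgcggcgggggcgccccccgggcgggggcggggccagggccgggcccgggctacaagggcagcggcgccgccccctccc

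The CCAAT box is common, present in 33.8% of all windows. By gene it was present in 37.5% of all genes and in 12 of the 19 S phase genes (63.2%). It was present in 2 of 3 windows of Dnmt1, in both of Uhrf1, once each in Tet3 and Tdg, and in none of Dnmt3a, Dnmt3b, Tet1 and Tet2. Another 8 motifs were searched on both strands: the GC box GGGCGG, the ETS site CCGGAAGT, the RUNX sites TGTGGTTT or TGTGGTCA, the cell cycle element TTTGAA, the E-box CACGTG, another E-box with the letters CAGCTG, the GATA site AGATAA and the SOX site ATTGTT. The GC box was found in windows of all members but Tdg, beside 35.4% of all genes. The cell cycle element was found in the first window of Dnmt1 and in that of Dnmt3b, beside 18.3% of genes. The RUNX site was found in the first window of Uhrf1 (3.12% of genes) and CACGTG in a window of Dnmt3a and of Tdg (6.86%). The ETS, GATA and SOX sites and CAGCTG were found in none. A match is a description of the letters only, and which start these cells used was not measured.

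Dnmt3b (ENSMUSG00000027478, chr2:153649450-153687730, plus strand) varied most of the 4 genes of the methyltransferase side. In EC at E11.5 it stood at 59.8 CPM (58.9 to 60.7) in G2VInt and 40.1 CPM in G2VLo (39.02 to 41.3). In HC1 it stood at 433.3 CPM (430.2 to 436.5) and 390.7 (386.2 to 395.1), and in HC2 at 317.5 (313.4 to 321.5) and 470.3 (460.9 to 480). In U1 of G2VLo it stood at 16.2 CPM (15.01 to 17.5). The levels of EC, of both hematopoietic classes and of U1 did not overlap in these sets.

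The quartiles of Dnmt3b per cell in E11.5 G2VInt were 20.6 and 77.99 CPM in EC and 252.8 and 562 CPM in HC1, which did not overlap. In G2VLo they were 2.65 and 59.1 CPM in EC, 211.1 and 509 in HC1, and 0 and 7.02 in U1, so that those of EC and U1 overlapped and those of HC1 lay above both. A read of Dnmt3b was found in 97.1% of thinned HC1 cells (91.6 to 99.4) and 85.2% of EC cells (77.7 to 91.02) of E11.5 G2VInt. In G2VLo the shares were 98.8% (95.6 to 99.9) in HC1, 70.1% (62.9 to 76.6) in EC and 31.2% (21.1 to 42.7) in U1. Within HC1, cluster 8 held more than cluster 7: 570 against 346.1 CPM in E11.5 G2VInt, 457.5 against 297.3 in G2VLo and 666 against 496 at E10.

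Dnmt3a (ENSMUSG00000020661, chr12:3806007-3914443, plus strand) was higher in HC1 than in EC, HC2 and U1 of E11.5. It stood at 415.2 CPM in HC1 of E11.5 G2VInt (412.1 to 418.2) and 407.4 in G2VLo. EC held 200.2 and 154.6 CPM, HC2 140.9 and 216.8 CPM, and U1 of G2VLo 177.6 CPM. The 4 HC1 sets of the 3 days and both gates lay between 407.4 and 441.8 CPM. Per cell the quartiles were 275.7 and 517 CPM in HC1 and 131.2 and 255.9 CPM in EC of E11.5 G2VInt. Among the HC2 clusters of E11.5 G2VInt, cluster 11 held 93.6 CPM of Dnmt3a (13 cells) and cluster 10 155.1 CPM (23 cells).

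Dnmt3a and Dnmt3b correlated across cells at 0.44, 0.33, 0.37, 0.46 and 0.45 in the order E10, E11, E11.5 G2VInt, G2VLo and CD27+. These values are over all cells of a group. Both genes were higher in HC1 than in EC and U1, no value within HC1 was computed, and the part of the classes was not tested. Both were read in 97.1% of HC1 cells and 82.8% of EC cells of E11.5 G2VInt, and in 31.2% of U1 cells of G2VLo. The genes most like Dnmt3a over the 5 groups were Neurl3 (0.50), Plcg2 (0.50) and Tmem176b (0.47). Those most like Dnmt3b were Fkbp4 (0.61), Hmga1b (0.61) and Mpo (0.61), the last a myeloid granule enzyme that is also read in early blood progenitors. Hmga1b is a near copy of Hmga1.

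Set per kilobase of joined exons, the de novo pair held a smaller share of Dnmt3b in EC than in HC1 and HC2. In EC Dnmt3b made up 43.6% of the pair on E10 (14 cells) and 40.4% on E11 (15 cells). At E11.5 it made up 49.3% in EC of G2VInt (48.9 to 49.8) and 45.8% in G2VLo (45.1 to 46.6). In HC1 of G2VInt it made up 82.5% on day E10, 77.4% on E11 and 77.3% on E11.5, and in G2VLo 75.8%. In HC2 of E11.5 it made up 88.02% and 87.6%, in CD27+ cells 75.9%, and in U1 22.9% (21.5 to 24.4). Dnmt3b was the higher of the pair in 91.2% of HC1 cells and 49.2% of EC cells of E11.5 G2VInt. These shares depend on the length used: with the longest coding transcript instead, which was chosen after the data were seen, HC1 and EC of E11.5 G2VInt came to 70.1% and 40.1%, and with no length at all to 51.1% and 23.01%. In G2VLo HC1 came to 48.95% with no length, so HC1 stayed above EC. The near even split in EC did not hold with no length. The larger part of Dnmt3b shrank to a near even split in HC1 of E11.5. In HC1 of E10, reads of Dnmt3b still outnumbered those of Dnmt3a with no length.

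**Figure D3:**
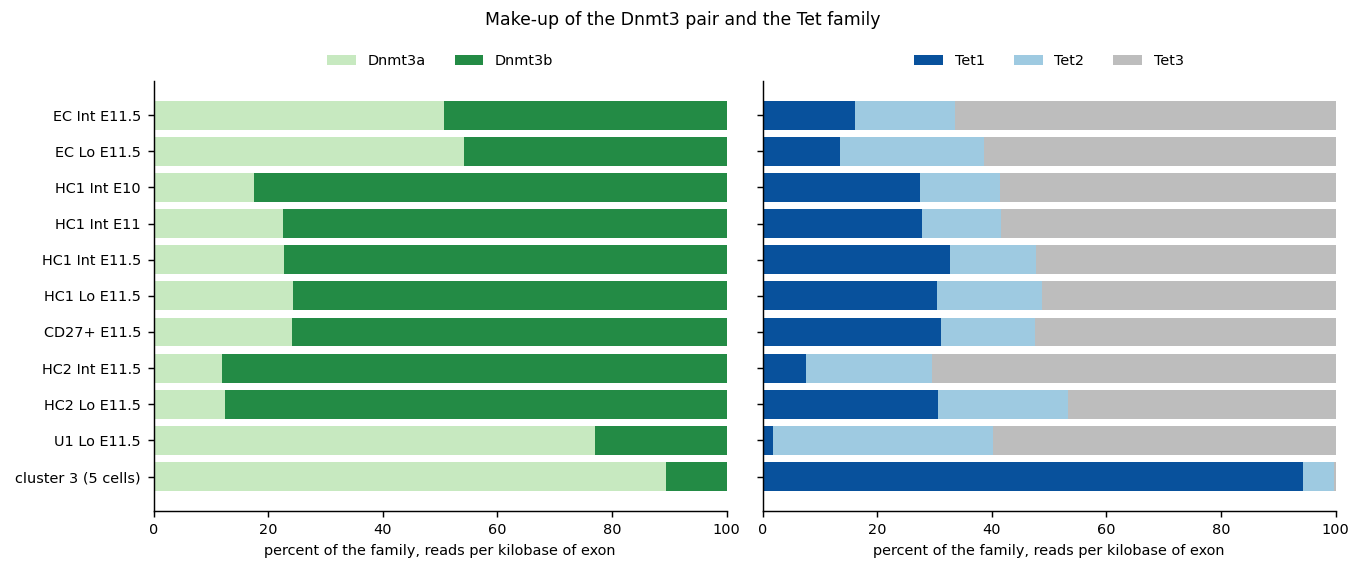
Share of each gene in the summed level per kilobase of joined exons of its family, the Dnmt3 pair on the left and the 3 Tet genes on the right, for classes by gate and day, CD27+ cells and cluster 3. Dnmt3b makes up 45.8% to 49.3% of the pair in EC, shown for E11.5 only, and 75.8% to 82.5% in HC1; Tet1 makes up 1.90% of the Tet family in U1 and 94.3% in the 5 cells of cluster 3.

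Tet1 (ENSMUSG00000047146, chr10:62804570-62908996, minus strand) was the Tet gene with the widest range. At E11.5 in G2VInt it stood at 26.5 CPM in EC (25.9 to 27.1), 53.2 in HC1 (52.1 to 54.3) and 8.93 in HC2 (8.26 to 9.63). In G2VLo it stood at 17.5 CPM (EC, 16.7 to 18.2), 38.7 in HC1 (37.3 to 40.1), 33.8 in HC2 (31.3 to 36.4) and 2.76 in U1 (2.27 to 3.32). HC1 was above EC in both gates, while HC2 was below HC1 in G2VInt of E11 (17.6 against 50.2 CPM) and E11.5. The shares of cells with a read followed the same order: 77.5% of HC1 (68.1 to 85.1), 59.8% of EC (50.6 to 68.6) and 20.5% of HC2 (9.80 to 35.3) in G2VInt, and 61.3%, 48.4% and 50.0% in G2VLo, where 10.4% of U1 cells (4.59 to 19.4) had one.

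The HC2 class is not the same mix in both gates, which bears on these Tet1 values. Of the 44 HC2 cells of E11.5 G2VInt, 23 were in cluster 10 and 13 in cluster 11; of the 36 of G2VLo, 23 were in cluster 9. Tet1 stood at 1.81 CPM in cluster 11 and 10.2 in cluster 10 of G2VInt, and at 35.4 CPM in cluster 9 of G2VLo. The erythroid markers summed to 989 CPM in HC2 of G2VInt and 322.6 in HC2 of G2VLo. The part of this mix in the difference between gates was not tested. Between the gates within HC2 of E11.5, 29% of measured genes were at least 1.5-fold apart (9.76% lower in G2VInt). Between E11 and E11.5 within HC2 of G2VInt, 18.5% were (12.2% lower on E11.5).

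Tet2 (ENSMUSG00000040943, chr3:133463679-133545139, minus strand) was higher in EC than in HC1 on E10 and in G2VLo of E11.5, with no steady direction in the other sets. It stood at 30.97 CPM in EC (30.3 to 31.6), 26.5 in HC1 (25.7 to 27.3) and 28.1 in HC2 (26.9 to 29.4) of E11.5 G2VInt. In G2VLo the levels were 35.7 CPM in EC, 25.6 in HC1 and 27.5 in HC2, and U1 stood above them at 60.8 CPM (58.4 to 63.3). The ratio of HC1 over EC was 0.72 in G2VLo, with 0.71 in the lower and 0.72 in the upper library numbers. In E11.5 G2VInt it was 0.86, with 0.60 in the lower and 1.12 in the upper library numbers, so its direction turned there. On E11 the levels in EC (26.7 CPM, 25.1 to 28.5) and HC1 (27.4 CPM, 26.7 to 28.1) overlapped, and on E10 EC stood at 43.2 and HC1 at 21.2 CPM. A read of Tet2 was found in 85.7% of U1 cells (75.9 to 92.6), 74.5% of EC and 48.5% of HC1 cells of G2VLo. Among the classes of G2VLo, Tet2 was thus highest in the cells with macrophage markers, as was Tet3 by less.

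Tet3 (ENSMUSG00000034832, chr6:83362373-83459084, minus strand) had the largest share of the Tet family per kilobase in EC, HC1 and HC2 of E11.5 and in U1 of G2VLo. Its class levels at E11.5 ran from 89.5 to 117.1 CPM in G2VInt for EC, HC1 and HC2, with EC highest. In G2VLo they ran from 55.8 CPM in HC2 to 93.9 in U1. Per kilobase, Tet3 made up 66.4% of the Tet family in EC, 52.3% in HC1 and 70.5% in HC2 of E11.5 G2VInt. Tet1 made up 16.2%, 32.8% and 7.60% there. In U1 of G2VLo, Tet1 made up 1.90% and Tet2 38.3%.

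In HC1 of E11.5 G2VInt 42.2% of thinned cells had a read of all 3 Tet genes. Tet1 and Tet2, the only Tet pair computed, showed little relation across cells, at 0.06, -0.04, 0.02, -0.12 and 0.00 in the 5 groups. Tet1 and Dnmt3b correlated at 0.44, 0.21, 0.21, 0.30 and 0.12, also over all cells of a group and with no value computed within HC1. The genes most like Tet1, Tet2 and Tet3 reached means of 0.30 (Trim6), 0.24 (Bcl2l11) and 0.20 (Sipa1), and in sparse counts such values are not read as a finding.

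Tdg (ENSMUSG00000034674, chr10:82629828-82650799, plus strand), the glycosylase, stood at 12.8 CPM in EC, 13.1 in HC1 and 9.83 in HC2 of E11.5 G2VInt, at 13.98, 13.1 and 11.7 CPM in G2VLo and at 7.18 CPM in U1. In HC1 it stood at 19.6 CPM on E10 (18.8 to 20.4), 15.3 CPM on E11 (14.7 to 15.8) and 13.1 CPM on E11.5 (12.6 to 13.7). Over all cells E11.5 G2VInt (12.3 CPM) and G2VLo (12.5 CPM) did not differ beyond their counting intervals.

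For HC1 against EC in E11.5 G2VInt, 4 of the 8 genes were at least 1.5-fold higher, where 42% of the measured genes differed that much (24.5% higher). A gene counted as measured with 10 CPM or more in 1 set and reads in 5% or more of the thinned cells there. The ratio was 7.24 for Dnmt3b (7.12 to 7.37), 2.07 for Dnmt3a (2.05 to 2.10), 2.01 for Tet1 (1.95 to 2.07) and 1.54 for Uhrf1 (1.53 to 1.56). Dnmt1 had a ratio of 1.39, Tdg 1.02, Tet2 0.86 and Tet3 0.78. The Dnmt3b ratio was 9.44 in the lower and 5.43 in the upper library numbers, so libraries of 1 gate differed in size of effect and not in direction. The Uhrf1 call ended by TMM (log2 ratio 0.44), by DESeq2 size factors (0.46) and in the upper library numbers (0.58). In G2VLo, where 41.7% of genes differed (25.3% higher), 3 members were higher: Dnmt3b with a ratio of 9.73 (9.44 to 10.03), Dnmt3a with 2.64 and Tet1 with 2.21, while Uhrf1 had 1.45. The members' median log2 ratio in G2VInt was 0.55, beside 0.19 for all measured genes.

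Other genes of these pathways were also described for HC1 against EC in E11.5 G2VInt, where 24.5% of measured genes were higher and 17.4% lower. Maintenance partners and base excision repair genes were higher at about that share. Of 8 maintenance partners, 2 were higher and 0 lower, Cdca7 (271 against 138.4 CPM), a part of the Hells remodelling complex, and Lig1 (269.6 against 174.5 CPM), the ligase of replication. Of 6 measured de novo partners, 1 was lower, the imprint-protecting Zfp57 (14.6 against 75.98 CPM). Of 10 base excision repair genes, 3 were higher, with Apex1, the nuclease that cuts at the empty site, at 138.9 against 74.8 CPM. Of 7 genes that supply S-adenosylmethionine, the methyl donor, 3 were higher, among them Mat2a, which makes it, at 517 against 266.5 CPM. Of 26 S phase genes 11 were higher and 0 lower, and of 20 G2 and M phase genes 10 were higher and 0 lower, so cell cycle genes differed in this contrast and their part in the Uhrf1 ratio was not tested.

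**Figure D4:**
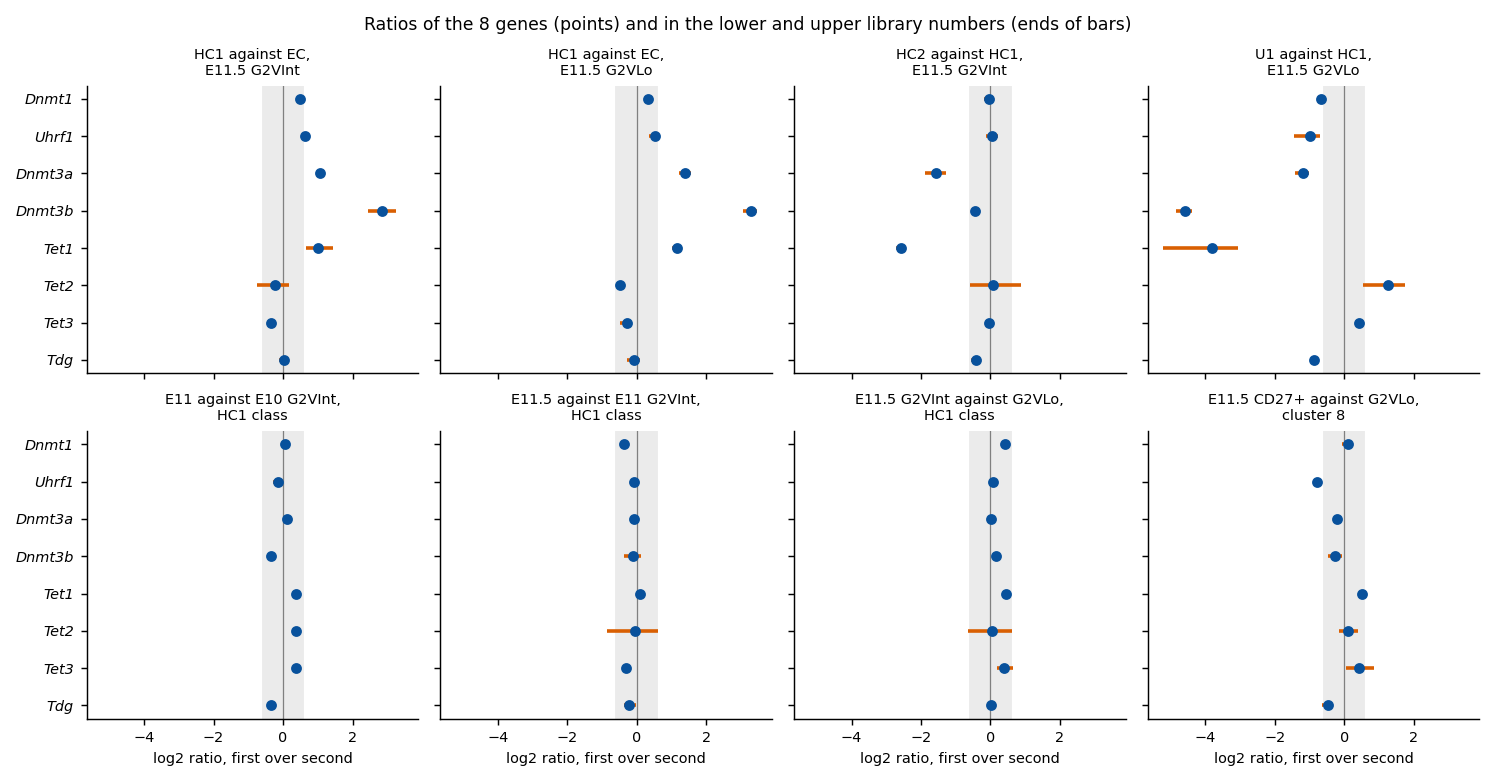
Log2 ratio of CPM for the 8 genes in 8 comparisons (points), with bars from the ratio in the lower library numbers to that in the upper library numbers of both sets; the grey band is within 1.5-fold. In classes, Dnmt3b lies furthest right for HC1 against EC (7.24-fold in G2VInt) and furthest left for U1 against HC1 (24.1-fold lower), and in the HC1 class between days and gates all points lie in the band.

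HC2 against HC1 in E11.5 G2VInt left the maintenance pair near even and set Dnmt3a and Tet1 apart. Here 2 members were at least 1.5-fold lower in HC2 and none higher, where 39.6% of measured genes differed (26% lower). Dnmt3a was 2.95-fold lower in HC2 (140.9 against 415.2 CPM) and Tet1 5.96-fold lower (8.93 against 53.2 CPM). Dnmt1 had a ratio of 0.97, Uhrf1 1.03, Dnmt3b 0.73, Tet2 1.06, Tet3 0.97 and Tdg 0.75. In G2VLo, where 31.4% of genes differed (21.6% lower), Dnmt3a alone of the 8 was that far apart (0.53), and Tet1 had a ratio of 0.87. Idh1 (60.2 against 134.9 CPM) and Idh2 (595 against 1158 CPM), which make the cofactor of the Tet enzymes, were also lower in HC2 of G2VInt, as 3 of 5 measured Tet partner and cofactor genes were. Zfp57 was at 1.10 against 14.6 CPM and Uhrf2, the relative of Uhrf1, at 85.4 against 140.8 CPM.

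U1 against HC1 in G2VLo was the contrast with the widest member ratios. At least 1.5-fold differences were seen for 7 members, 1 higher and 6 lower in U1, where 63.7% of measured genes differed (18.3% higher and 45.5% lower). At least 2-fold differences were seen for 4 members and for 41.9% of genes. Dnmt3b was 24.1-fold lower (16.2 against 390.7 CPM) and Tet1 14.03-fold lower (2.76 against 38.7 CPM). Dnmt3a had a ratio of 0.44, Uhrf1 0.50, Tdg 0.55 and Dnmt1 0.63, while Tet2 was higher with 2.38 (2.24 to 2.52, and 0.54 as log2 in the lower library numbers) and Tet3 stood at 1.34. The median log2 ratio of the members was -0.93 and that of all measured genes -0.48. Relative to that shift, the ratios of Dnmt1, Uhrf1 and Tdg came to under 1.5-fold by DESeq2 size factors, and those of Dnmt1 and Tdg by TMM. Tet3 then came to over 1.5-fold higher in U1, with a log2 ratio of 0.82 by TMM and 0.84 by DESeq2 size factors, so the split became 2 higher and 4 lower by TMM and 2 higher and 3 lower by DESeq2 size factors.

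The partners in U1 against HC1 are given beside the shares of all measured genes there, 45.5% lower and 18.3% higher. These list counts were not computed by TMM or DESeq2 size factors. Of 10 base excision repair genes 8 were lower and 1 higher. Apex1 stood at 34.3 against 131.3 CPM and Ung, a uracil glycosylase, at 35.8 against 120.8 CPM. Of 8 maintenance partners 3 were lower, a smaller part than among all measured genes: Cdca7 (45.2 against 232.1 CPM), Hdac1 (23.9 against 68.3) and Hells (58.97 against 116.8). Of 7 genes of the S-adenosylmethionine supply 4 were lower and 1 higher. Of 26 S phase genes 14 were lower and 0 higher, while of 20 G2 and M phase genes 13 were higher and 2 lower.

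The days were compared within HC1 of G2VInt. From E10 to E11 none of the 8 genes differed by 1.5-fold, where 17.7% of measured genes did. Dnmt3b went from 591 to 465.5 CPM (ratio 0.79, interval 0.78 to 0.80) and Tdg from 19.6 to 15.3 CPM (0.78). Tet1 went from 38.5 to 50.2 CPM, Tet2 from 21.2 to 27.4 and Tet3 from 88.7 to 113.8, ratios between 1.28 and 1.30. From E11 to E11.5 again none did, where 8.72% of genes did, and Dnmt1 was the furthest apart at 522 and 406.3 CPM (0.78). Tet2 was 0.55 in the lower and 1.52 in the upper library numbers. Over all G2VInt cells the Dnmt3b levels of 495 CPM on E10, 401.9 on E11 and 209.6 on E11.5 covered a wider range than in HC1, and EC cells, which are low in Dnmt3b, were 14 of 87 cells on E10, 15 of 130 on E11 and 43.7% of the cells on E11.5. Other parts of the mix also differed between E10 and E11. HC1 made up 72.4% and 59.2% of the cells, and HC2 9.2% and 27.7%. In the authors' clustering of all cells, cluster 8 held 63.2% of the cells on E10 and 26.2% on E11. The part of the mix in these day differences was not tested, and a day and its run of libraries cannot be told apart.

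The gates of intermediate and low Venus were compared at E11.5. Over all cells none of the 8 genes was 1.5-fold apart, where 11.4% of measured genes were. Ratios of G2VInt over G2VLo ran from 0.81 for Tet2 to 1.31 for Dnmt1 and Tet1. Within HC1 none was apart either, where 13% of genes were: Tet1 stood at 1.37 (1.32 to 1.43), Dnmt1 at 1.34 (1.32 to 1.36), Tet3 at 1.31, and the other 5 between 1.00 and 1.11. The HC1 class is not the same mix in both gates, with 63 cells in cluster 7 and 39 in cluster 8 in G2VInt, and 71 and 92 in G2VLo. Within cluster 7, where 18.9% of genes differed, Dnmt1 (408.5 against 254.6 CPM, 1.60) and Tet3 (96.6 against 58.2 CPM, 1.66) were over 1.5-fold higher in G2VInt. Within cluster 8, where 19.1% did, Tet1 was (56.4 against 32.02 CPM, 1.76). Of the 20 G2 and M phase genes 17 were higher in G2VInt within HC1 and 0 lower, with Nek2 at 73.9 against 25.1 CPM and Plk1 at 263.5 against 111.8, while 2 of 26 S phase genes were lower, and the part of this in the Dnmt1 ratio was not tested.

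Within EC, Tet1 alone was 1.5-fold higher in G2VInt (26.5 against 17.5 CPM, ratio 1.52, 1.44 to 1.59), where 11.2% of genes differed (10% higher). At 2-fold no member and 2.35% of genes differed. Dnmt3b was just under the limit (59.8 against 40.1 CPM, 1.49). The Tet1 call ended under 6 other ways of computing it, among them TMM (log2 ratio 0.47), and in the upper library numbers it was 1.25, against 1.75 in the lower. In EC cluster 1 the Tet1 ratio was 1.87 and in cluster 2 1.39. Levels of a gene near 20 CPM rest on few reads per cell in G2VLo.

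CD27 marks early hematopoietic stem and progenitor cells, so CD27+ cells were set beside G2VLo cells of the same day. Over all cells 2 members were higher, where 19.9% of measured genes differed (7.51% higher): Tet1 at 49.02 against 24.2 CPM (2.02, 1.94 to 2.11) and Dnmt3b at 284.6 against 169.1 CPM (1.68, 1.66 to 1.71). Without the clusters made mostly of U1 or U2 cells Dnmt3b was 0.53 apart on the log2 scale and no longer past 1.5-fold. The share of endothelial clusters differed too. Clusters 1 and 2 of all cells held 12.7% and 23.7% of G2VLo cells and 1.68% and 7.56% of CD27+ cells. EC of G2VLo was low in Dnmt3b (40.1 CPM) and Tet1 (17.5 CPM). The part of this mix in the 2 ratios was not tested. At 2-fold only Tet1 was apart, where 7.98% of genes were.

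Another order was seen within cluster 8, from the authors' clustering with CD27+ cells included, to which 69 CD27+ cells and 26.1% of G2VLo cells belong. Uhrf1 was 1.71-fold lower in CD27+ cells (203.5 against 347.9 CPM, ratio 0.59, 0.57 to 0.60), the 1 of the 8 that was 1.5-fold apart, where 15.1% of genes were (9.08% lower), while at 2-fold none was and 3.22% of genes were. It was lower in both the lower (0.55) and the upper (0.63) library numbers. Against cluster 8 of E11.5 G2VInt (37 cells, 367.7 CPM) the Uhrf1 ratio was 0.55, and cluster 8 cells of E10 and E11 held 381.6 and 421.9 CPM. CD27+ cells were thus the lowest of the 5 groups in this cluster for Uhrf1 and not for Dnmt1, which stood at 375.1 CPM in CD27+ and 346.1 in G2VLo.

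The S phase genes differed along with Uhrf1 in this contrast. Of 26, 10 were lower and 1 higher in CD27+ cells, where 9.08% of measured genes were lower and 6.06% higher. Their median log2 ratio was -0.45 against -0.05 for all measured genes. Cdc6, which loads the helicase, stood at 35.5 against 90.6 CPM and Rrm2 at 150.5 against 252.2. Of 20 G2 and M phase genes 3 were higher and 0 lower. Hells (92.5 against 138.96 CPM) was the 1 of 8 maintenance partners that was lower, and Ung (71.3 against 129.6 CPM) 1 of 2 of 9 base excision repair genes. The part of the cell cycle genes in the Uhrf1 difference was not tested, and the gate and the run of libraries cannot be told apart. In the same cluster Tet1 stood at 52.6 CPM in CD27+ and 36.9 in G2VLo (1.43), Tet3 at 99.8 and 74.3 (1.34), Dnmt3b at 390.7 and 465.5 (0.84), Dnmt3a at 337.1 and 389.3 (0.87) and Tdg at 9.91 and 13.8 (0.72).

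Cluster 3 is a set of 5 G2VLo cells of class U2 that was singled out after its values were seen. Its cells had between 184564 and 738588 reads, and all 8 fixed markers of primordial germ cells were read in it, among them Pou5f1 at 924 CPM, Dppa5a at 967, Dppa3 at 657, Dnd1 at 479, Tfap2c at 210.2, Prdm1 at 55.2 and Nanos3 at 30.9. Pou5f1 stood at 0.0065 CPM over all other cells. Ptprc and Runx1 had 0 reads in the 5 cells, which allows up to 1.12 CPM, and Cdh5 stood at 2.61 CPM, Plvap at 7.46 CPM and Myb at 31.3 CPM, while Kit (326.9 CPM) and the endothelial marker Pecam1 (172.96 CPM), the genes of sorted proteins, were read. They are called primordial germ cell-like here. Germ cells of this age pass near the AGM on their way to the gonad and are known to lose DNA methylation.

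These 5 cells differed from the classes of G2VLo for several of the 8 genes. Tet1 stood at 153.95 CPM, with 47.3, 70.7, 140, 255.9 and 368.4 CPM in the single cells. All 5 were above the Tet1 level of HC1 of G2VLo (38.7 CPM). Uhrf1 stood at 14.2 CPM, with 0 in 2 cells and 5.42, 9.45 and 50.3 CPM in the others, against 306.4 CPM in HC1. Dnmt3b stood at 3.73 CPM (0, 1.57, 3.37, 3.78 and 27.1 CPM), against 390.7 CPM in HC1 and 16.2 in U1. Tet1 was thus above and Uhrf1 and Dnmt3b below their levels in HC1 of the same gate.

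Dnmt1 itself stood at 240.4 CPM, with 62.9, 204.4, 234, 308.8 and 459.5 CPM in the single cells, a level like that of EC in G2VLo (241.7 CPM). Dnmt3a stood at 102.1 CPM (1.89, 37.9, 114.5, 136.8 and 152.4 CPM). Tet2 stood at 9.69 CPM, Tdg at 17.9, and Tet3 had 1 read, in 1 of the 5 cells (0.373 CPM). Tet1 made up 94.3% of the Tet family per kilobase (91.9 to 96.2) and Dnmt3b 10.6% of the Dnmt3 pair (5.34 to 18.2). Of 12 germline genes, 5 stood above 10 CPM in cluster 3, Ddx4 (94.7), Stk31 (49.6), Asz1 (42.1), Dazl (24.98) and Mael (13.05), and none of the 12 was above 1.98 CPM over the other cells. With 5 cells of 1 group, no more than these values can be said.

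**Figure D5:**
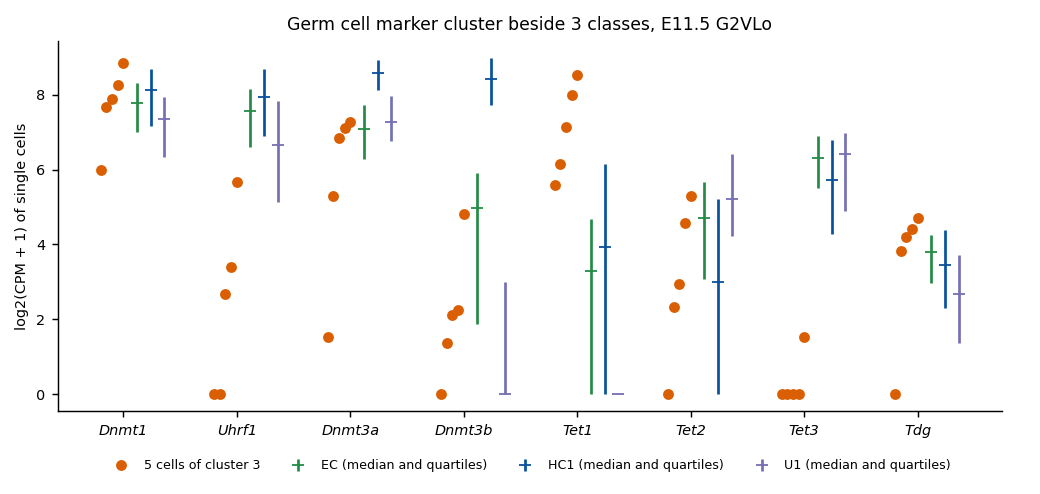
Level of the 8 genes as log2(CPM + 1) in each of the 5 cells of cluster 3 (points) and the median and quartiles over cells of the EC, HC1 and U1 classes of E11.5 G2VLo (ticks and lines). Tet1 is between 47.3 and 368.4 CPM in the 5 cells, Dnmt3b at or under 27.1 CPM, and Tet3 is at 0 in 4 of 5.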

How the data were processed

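RNA of 1087 single cells was sequenced from Nextera XT libraries on an Illumina HiSeq, per the labels. The authors deposited 1 table of raw read counts per Ensembl gene, made with HTSeq 0.6.0 on GRCm38, per the submitters' processing notes; aligner, annotation release and strand setting are not given in the sources used here. Per cell 117369 to 6999570 reads were counted, and all 1087 columns differed. Symbols came from GENCODE M21 (45143 of 46078 IDs), promoter sequences from RefSeq.

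Groups, classes and clusters were taken from the labels. Counts were summed over cells and given as CPM of all genes, with ratios of CPM. No test was run and the fold of 1.5 is a description. Scripts used Python 3.11.15, numpy 2.4.6, pandas 2.3.3 and scipy 1.17.1; scaling alternatives used edgeR 4.0.16 (TMM) and DESeq2 1.42.0 (size factors only) in R 4.3.3. The ratio script was tested on simulated data.

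Named were the 8 genes, per list up to 3 genes furthest apart beyond 1.5-fold, and the 3 genes most like each member; others were named after their values were seen. The members and lists (10 lists, 112 genes) were chosen with earlier results of these data known. Alternatives were the mean of per-cell CPM, both scalings, mitochondrial genes left out, no filter, lower and upper library numbers, thinned cells and a 2-fold limit. Some genes of these lists are not reported here.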

Additional observations from a re-analysis of the deposited data

Results flagged for a closer look

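In 3 cases the log2 ratio of a gene was above 0 in HC1, by less than 1.5-fold, and below 0 in HC2, by more than 1.5-fold, under the same contrast, and none of these differences was tested. For G2VInt against G2VLo at E11.5, the log2 ratio of Dnmt3a was 0.03 in HC1 and -0.62 in HC2, and that of Tet1 was 0.46 in HC1 and -1.92 in HC2. These are ratios of CPM with no further scaling. The median of all measured genes in that HC1 contrast was 0.15 and the TMM factor 0.12 on the log2 scale, so the sign of the 0.03 of Dnmt3a depends on the scaling. For E11.5 against E11 in G2VInt, the log2 ratio of Tet1 was 0.08 in HC1 and -0.98 in HC2. Under both contrasts many other measured genes were also at least 1.5-fold apart in HC2, with the shares given above for that class. The HC2 cells of the gates come mostly from different clusters, 23 of 36 from cluster 9 in G2VLo and 36 of 44 from clusters 10 and 11 in G2VInt.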

How the results depend on the processing

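No paired analysis was possible because each group is 1 sample and replicate numbers are only accession order. Alternatives were computed for 10 comparisons, and not for HC1 against EC and HC2 against HC1 in G2VLo or for the gates within single clusters. Of the 17 member ratios 1.5-fold apart in those 10, every setting computed kept the direction, and 19 values came to under 1.5-fold. Counts of members 1.5-fold apart (0 over all cells of G2VInt against G2VLo and 0 in HC1) were 1 and 1 in the lower library numbers, and 2 in HC1 in the upper. In EC (1) the count was 0 by the mean of per-cell CPM, TMM, DESeq2 size factors, mitochondrial genes left out, thinned cells and a 2-fold limit, and 2 in the upper numbers. For CD27+ against G2VLo over all cells (2) it was 1 by the mean of per-cell CPM, in thinned cells, without the U1 and U2 clusters and at 2-fold, and 4 in the upper numbers; in cluster 8 (1) it was 2 in the lower and upper numbers and in thinned cells, and 0 at 2-fold. In HC1, E11 against E10 (0) gave 1 in thinned cells and E11.5 against E11 (0) gave 1 in the lower and in the upper numbers. U1 against HC1 (7) gave 4 at 2-fold. The share of Dnmt3b in HC1 was 77.3% as reported, 51.1% with no length and 70.1% by the longest coding transcript, and in EC 49.3%, 23.01% and 40.1%; that of Tet1 was 32.8%, 31.03% and 24.7% in HC1 and 16.2%, 15.2% and 11.55% in EC. Unthinned, Dnmt3b was read in 100% of HC1 and 98.4% of EC cells, and Tet1 in 89.2% and 85.2%. With Pearson in place of Spearman, all 10 values for Dnmt1 and Uhrf1 with S phase genes moved little (0.46 to 0.80). Shares of scarce genes (Tet1, Tet2, Tdg) are limited by depth. The causes were not tested.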
